A study of Mus musculus with 4 samples.

Results

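The expression of 46 imprinted genes was examined in tdTomato-positive cells that had been FACS-enriched (isolated by fluorescence-activated cell sorting) from mouse embryos at embryonic day (E) 16. The members are known mouse imprinted genes, in clusters or at single loci such as *H19*-*Igf2*, *Dlk1*-*Dio3*, *Peg3*, *Peg10*-*Sgce*, *Snrpn* and *Kcnq1ot1*. They were found by gene symbol among the 55573 genes of the count files, and all 46 were present. Of these, 41 had enough reads to be compared between genotypes, as had 16832 genes in total. Both genotypes carried *Hmx3-Cre*, in which the *Hmx3* gene drives the Cre recombinase, and a tdTomato reporter that Cre switches on. Wild-type (WT) embryos had intact *Dnmt1*, whereas in *Dnmt1* knockout (KO) embryos Cre removed the loxP-flanked exons of the Dnmt1 loxP2 allele in cells of the *Hmx3* lineage. Cells came from pools of 12 WT and 6 KO embryos, and 2 libraries were sequenced per genotype. According to the study's methods these were technical duplicates of pooled cells of the preoptic area (POA), while the sample labels speak of biological replicates and of the basal telencephalon. The p-values below therefore measure the spread between these libraries, which may be technical.

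Imprinted genes are expressed from only the maternal or only the paternal copy. The choice is written in the germline as DNA methylation of an imprinting control region, and after fertilisation DNMT1, the maintenance methyltransferase, copies this methylation onto the new strand at each cell division. Zinc finger proteins such as ZFP57 bind the methylated copy and keep it methylated in the early embryo. Many imprinted genes act in growth, and the hypothalamus and neighbouring forebrain express a large number of them. Loss of methylation at a control region can silence the active copy of some genes of a cluster and activate the silent copy of others. The present counts add up both copies of a gene, so that neither the parental origin of the reads nor methylation was measured here.

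The libraries held between 8075102 and 9995968 counts, and 3 counts, taken as the detection floor, corresponded to 0.294 to 0.372 CPM (read counts scaled to a common library size by the TMM method). Between 1.51% and 2.32% of the reads fell on mitochondrial rRNA in 3 libraries, against 8.66% in WT replicate 1. The targeted gene *Dnmt1* was counted 3103 and 4557 times in the WT libraries, against 2383 and 2552 times in the KO libraries. On the CPM scale the WT libraries averaged 416 ± 43.4 and the KO libraries 282 ± 1.59 (SD, n = 2), with a log2 fold change of -0.56 that missed the threshold (edgeR adjusted p = 0.0511). The genotypes did not overlap, but reads from the exons outside the deletion are part of these counts, so that the deletion itself was not measured. *Hmx3*, the gene that defines the sorted lineage, was present in all 4 libraries.

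Promoter windows of 300 bases, from 250 before to 50 after a transcription start, were taken from RefSeq (GRCm38.p6) and matched 38 of the 46 members with 56 windows. They were searched for CG dinucleotides, the site of DNMT1 action, and for the hexamer TGCCGC in either orientation (GCGGCA on the other strand), which ZFP57 recognises when methylated. A hexamer contains 1 of the counted CG dinucleotides. The median number of CG dinucleotides was 14.5 per member window and 7.0 over all 32851 windows, and 23.2% of the member windows held the hexamer against 11.6% of all windows. Of the 9 matched members listed with a germline methylated region at the promoter, 5 held the hexamer (*Mcts2*, *Mest*, *Nnat*, *Plagl1* and *Snrpn*), as did 7 of the 29 others (*Calcr*, *Commd1*, *Copg2*, *Grb10*, *Igf2*, *Meg3* and *Zim1*). *Usp29*, whose window overlaps that of *Peg3* and held 0 hexamers, was counted among the others, as not listed with a germline methylated region. Of the members with such a region and a matched window, *Nnat*, *Peg3* and *Mest* had the highest WT levels per kilobase of exonic length, and 1 window of each is shown. Those of *Asb4* and *Dlk1*, which lie outside such regions, are shown because these were the members that differed between genotypes, a choice made after their values were seen. Sequences are written 5′ to 3′ on the strand of the gene, with CG dinucleotides and hexamers in capitals. *Mest* has another start whose window held 8 CG dinucleotides and 0 hexamers, and a second *Asb4* window held 8 and 0. Of the windows shown, that of *Nnat* (chr2:157559828-157560127, plus strand) held 17 CG dinucleotides and 1 hexamer, that of *Mest* (chr6:30737800-30738099, plus strand) 17 and 2, and that of *Peg3* (chr7:6730370-6730669, minus strand) 13 and 0. Those of *Asb4* (chr6:5383136-5383435, plus strand) and *Dlk1* (chr12:109452573-109452872, plus strand) held 6 and 9 CG dinucleotides and 0 hexamers.
Nnat: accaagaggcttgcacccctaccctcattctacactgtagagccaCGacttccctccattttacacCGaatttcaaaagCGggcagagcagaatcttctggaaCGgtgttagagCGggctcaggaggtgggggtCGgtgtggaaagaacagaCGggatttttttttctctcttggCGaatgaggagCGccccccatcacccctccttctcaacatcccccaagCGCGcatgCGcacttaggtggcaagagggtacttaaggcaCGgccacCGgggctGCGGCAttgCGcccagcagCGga
Mest: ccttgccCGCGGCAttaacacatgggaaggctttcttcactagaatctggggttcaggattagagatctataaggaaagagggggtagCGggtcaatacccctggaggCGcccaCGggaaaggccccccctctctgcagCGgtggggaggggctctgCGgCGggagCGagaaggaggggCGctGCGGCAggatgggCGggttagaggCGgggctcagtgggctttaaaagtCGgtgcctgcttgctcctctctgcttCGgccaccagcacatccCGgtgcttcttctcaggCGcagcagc
Peg3: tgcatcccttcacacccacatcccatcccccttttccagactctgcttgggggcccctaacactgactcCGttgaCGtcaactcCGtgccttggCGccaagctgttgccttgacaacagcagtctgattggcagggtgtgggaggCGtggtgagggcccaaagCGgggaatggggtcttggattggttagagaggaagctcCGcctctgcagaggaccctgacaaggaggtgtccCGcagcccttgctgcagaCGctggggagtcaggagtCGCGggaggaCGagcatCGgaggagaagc
Asb4: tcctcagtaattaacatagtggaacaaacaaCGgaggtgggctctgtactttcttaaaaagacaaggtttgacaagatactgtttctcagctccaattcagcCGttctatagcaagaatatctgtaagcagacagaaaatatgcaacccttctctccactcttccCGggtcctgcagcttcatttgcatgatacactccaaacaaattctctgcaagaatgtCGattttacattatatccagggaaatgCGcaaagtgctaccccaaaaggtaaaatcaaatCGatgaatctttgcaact
Dlk1: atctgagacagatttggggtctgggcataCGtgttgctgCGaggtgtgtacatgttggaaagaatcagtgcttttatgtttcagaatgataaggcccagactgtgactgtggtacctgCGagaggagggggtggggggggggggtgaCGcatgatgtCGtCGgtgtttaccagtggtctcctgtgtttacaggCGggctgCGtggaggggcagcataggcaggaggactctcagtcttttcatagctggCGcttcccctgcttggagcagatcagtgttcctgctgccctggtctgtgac

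Among the 41 imprinted genes tested, *Asb4* and *Dlk1* were lower in *Dnmt1* KO cells, at 0.492 and 0.484 of their mean WT CPM. No member was called higher, and the other 39 members did not pass the test. At an edgeR adjusted p under 0.05, 2 of 41 members (4.88%) were called lower, against 0.57% of all genes tested. In the other direction the count was 0 of 41 with edgeR, against 7.33% of all genes, and it was also 0 at an unadjusted p under 0.05 (14.6% of all genes), with DESeq2 (1246 of all genes) and with limma-voom (1214 of all genes). At an unadjusted p under 0.05, 13 members were lower, against 8.01% of all genes. The log2 fold changes of the members ranged from -1.04 to 0.86 with a median of -0.24, where the median of all genes was -0.03. They were below 0 in 33 of the 41 members (80.5%) and in 52.4% of all genes. In 22 members (53.7%) the KO libraries were both below the WT libraries, against 25.2% of all genes. They were both above them in *Ndn*, *Airn* and *Trappc9*, against 28.3% of all genes. In the remaining 16 members the genotypes overlapped.

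The size of the differences was bounded by their 95% intervals. The upper bound lay below 1 on the log2 scale in 39 members, that is, below a doubling, with *H19* and *Airn* as the exceptions. The lower bound lay above -1 in 36 members, the exceptions being *Asb4*, *Dlk1*, *Ube3a*, *Plagl1* and *Ddc*. In 28 members the interval included 0. The number of members called lower depended on the libraries: it was 12 without WT replicate 1, 16 without WT replicate 2, 2 without KO replicate 1 and 0 without KO replicate 2, while the share of all genes called lower was 7.15%, 12%, 0.656% and 0.288%. Correcting each library for its trend with exonic length and GC content gave 13 members lower and 5.09% of all genes. Beside *Asb4* and *Dlk1* these were *Peg10*, *Calcr*, *Snrpn*, *Magel2*, *Mkrn3*, *Cdkn1c*, *Plagl1*, *Nnat*, *Gnas*, *Inpp5f* and *Peg13*, with log2 fold changes between -0.68 and -0.35 in that fit.

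**Figure D1:**
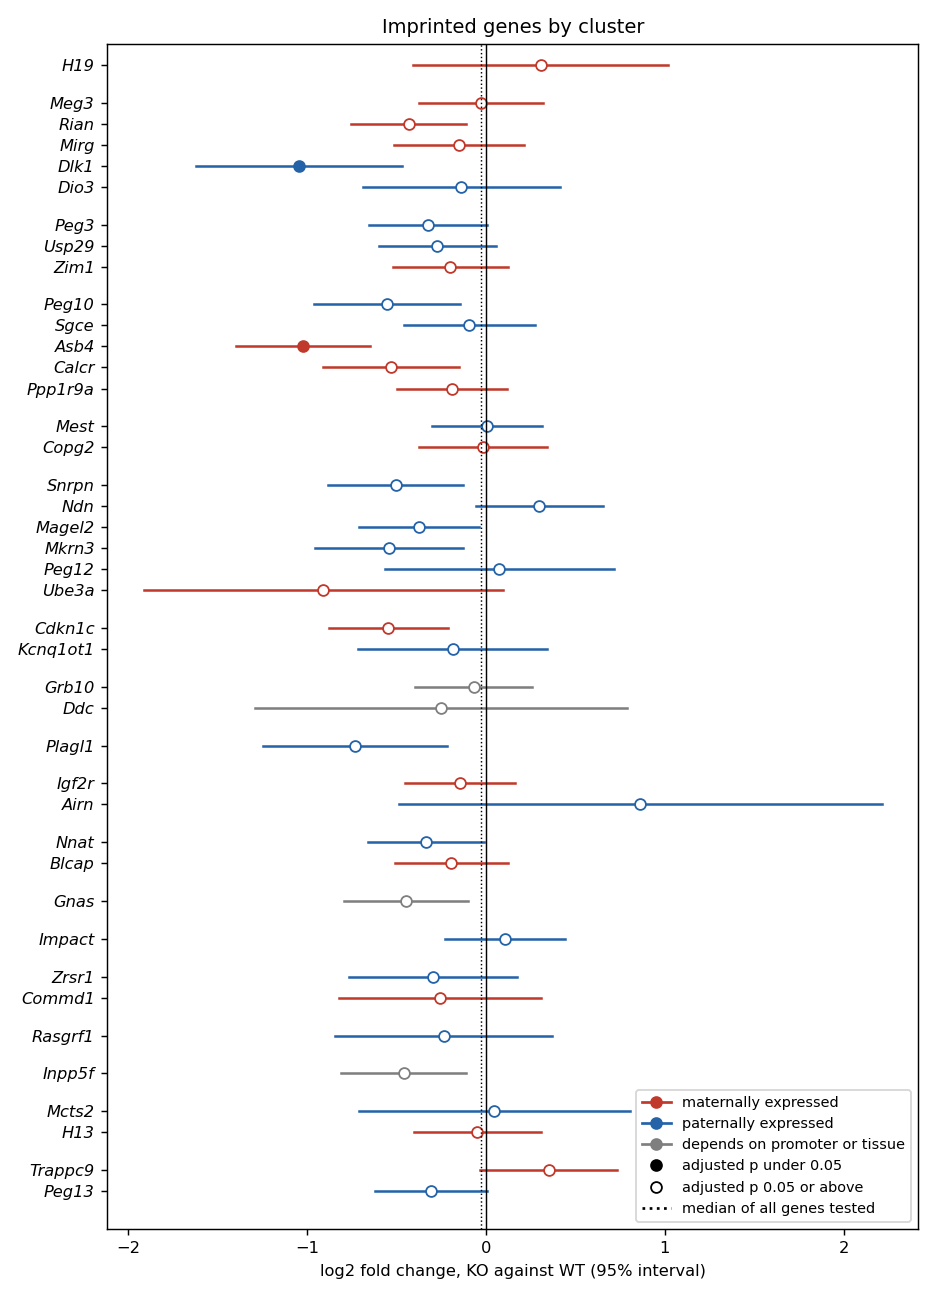
Log2 fold changes (KO against WT, x axis) of the 41 imprinted genes tested, with 95% intervals, grouped by cluster and coloured by expressed copy. Filled circles mark an edgeR adjusted p under 0.05 and the dotted line the median of all genes, -0.03. Of the 41 points, 33 lie below 0, and only *Dlk1* and *Asb4* are filled.

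The imprinted genes together made up 12600 and 11700 CPM in the WT libraries and 9980 and 10300 CPM in the KO libraries. The mean was 16.5% lower in KO, and the genotypes did not overlap. Other marker groups moved between the same libraries. Of all genes, 7.33% were called higher and 0.57% lower, and 8.01% were lower at an unadjusted p under 0.05. Log2 fold changes were below 0 in 52.4% of all genes. The sum of 12 pan-neuronal markers was 6780 and 6230 CPM in WT and 4620 and 4570 CPM in KO, and 3 of the 12 were called lower. Of 12 POA interneuron markers, 11 had log2 fold changes below 0 and 3 were lower at an unadjusted p under 0.05, and their sum was 1690 and 1560 CPM in WT against 1320 and 1430 CPM in KO. Markers of astrocytes summed to 263 and 242 CPM in WT and to 3650 and 3430 CPM in KO, with 10 of 10 called higher and *Gfap* at 0 counts in both WT libraries. Oligodendrocyte markers (7 of 11 called higher) summed to 1350 and 1420 CPM in WT and to 2110 and 2140 CPM in KO, and mural cell markers (7 of 8 called higher, *Acta2* at 0 counts in both WT libraries) to 58.3 and 63.6 CPM against 369 and 365 CPM. Choroid plexus markers (1 of 5 tested called lower, *Ttr*, which made up most of the sum) added up to 54.7 and 72.2 CPM in WT and to 10.1 and 12.2 CPM in KO, and erythroid markers (1 of 5 called lower) to 30.8 and 44.7 CPM against 18.9 and 19.2 CPM. Microglial markers (1 of 7 called higher) summed to 28.1 and 31.7 CPM in WT and to 54.2 and 61 CPM in KO. Endothelial markers (0 of 7 called) summed to 21.4 and 21.6 CPM in WT and to 25.3 and 27.3 CPM in KO. Meningeal markers (1 of 5 called higher, *Foxc1*) summed to 34.6 and 38.5 CPM against 47.9 and 41 CPM. Radial glia and cycling markers summed to 1090 CPM in both WT libraries and to 1180 and 1150 CPM in KO. Of these 10 markers 1, *Hes1*, was called higher, against 7.33% of all genes. The part of these cell types in the results on imprinted genes was not tested. In sorted cells that are sequenced in bulk, fewer cells of a type and less RNA per cell cannot be told apart.

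**Figure D2:**
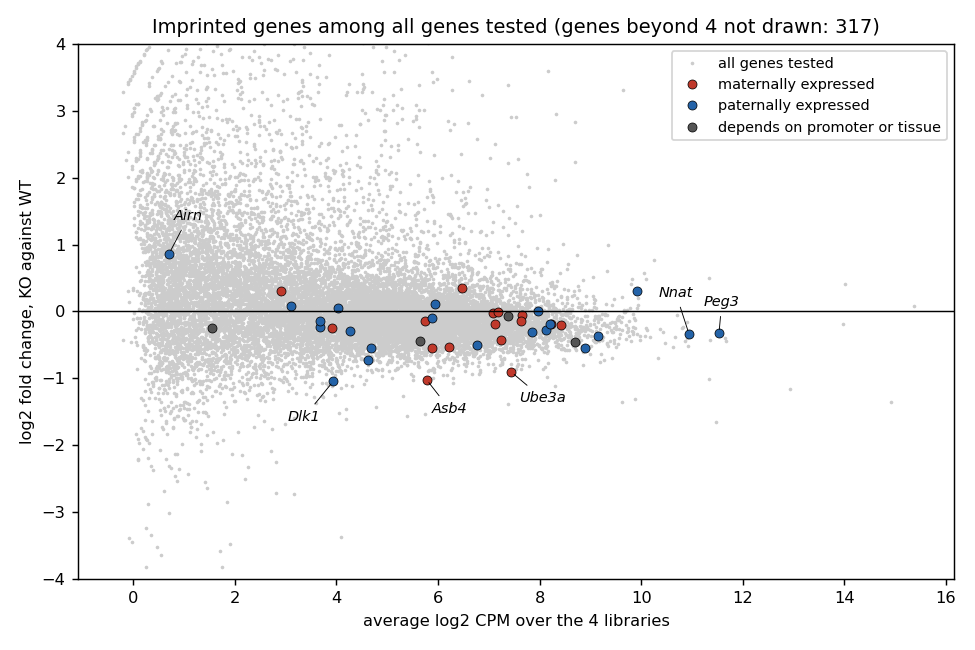
Log2 fold change (KO against WT, y axis) against the average log2 CPM over the 4 libraries (x axis) for all genes tested (grey) and the imprinted genes (coloured by expressed copy). Genes beyond 4 on the log2 scale, 317 in number, are not drawn; the imprinted genes stay between -1.04 and 0.86.

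Per kilobase of exonic length, the imprinted genes spanned a wide range of levels in WT. *Nnat*, which encodes the small membrane protein neuronatin, had 1200 CPM per kilobase and ranked at position 15 of the 16832 genes tested. *Peg3* followed with 247 CPM per kilobase (position 50), *Ndn* with 234 (position 55), *Magel2* with 138 (position 113) and *Peg10* with 84.4 (position 227). All of these are paternally expressed. At the other end, *Airn* had 0.282 CPM per kilobase (position 15885). Few or no reads were found for 5 members, which were not tested: *Rtl1* and *Phlda2* had 0 counts in every library, *Igf2* had 2 and 3 counts in the WT libraries and 5 and 0 in the KO libraries, *Slc22a18* had 0 and 3 against 0 and 1, and *Ascl2* had 2 and 0 against 2 and 2. *Rtl1* is a retrotransposon-derived gene, *Igf2* encodes a fetal growth factor, and *Phlda2* and *Ascl2* act in the placenta. From such WT counts a fall or a small rise was not detectable, while the KO counts did not exceed 5. *Gm49394*, with 0 counts in every library, covers 62.8% of the exonic bases of *Igf2* on the same strand, and reads that fall on both genes may have been left out of the counting.

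The *Peg10*-*Sgce* cluster on chromosome 6 held the member with the smallest adjusted p. *Asb4*, maternally expressed and coding for an ankyrin repeat protein that directs a ubiquitin ligase to its substrates, lies between positions 5383386 and 5433022 of GRCm38 (GENCODE M21, as for all gene positions below) under the identifier ENSMUSG00000042607. It had 637 and 687 counts in the WT libraries and 322 and 306 in the KO libraries, or 79.1 and 67.3 CPM against 38.3 and 33.7 CPM. Both KO libraries thus lay at about the same level and far below both WT libraries. *Asb4* fell by 1.02 on the log2 scale (SE 0.16, 95% interval -1.40 to -0.65, edgeR adjusted p = 0.00634). It passed the test in all of the 12 fits with another setting and the same 4 libraries (largest adjusted p = 0.00788), but not without KO replicate 2 (log2 fold change -0.93, adjusted p = 0.0571). The other 4 members of the cluster had log2 fold changes between -0.55 and -0.09, and none was called in the edgeR fit reported. *Peg10*, which encodes a retrotransposon-derived gag protein needed in the placenta, had 645 and 480 CPM in WT and 358 and 410 CPM in KO (log2 fold change -0.55, edgeR adjusted p = 0.11). It was called lower by DESeq2 and, as was *Calcr*, by edgeR with the length and GC correction. *Calcr*, the calcitonin receptor, had 95.5 and 80.1 CPM in WT and 66.0 and 55.6 CPM in KO (-0.53, adjusted p = 0.103). For *Ppp1r9a*, the actin-binding protein neurabin, the KO libraries also lay below the WT libraries, whereas those of *Sgce*, a sarcoglycan, overlapped with them.

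In the *Dlk1*-*Dio3* cluster on chromosome 12, whose control region is methylated on the paternal copy, *Dlk1* was the member called. *Dlk1* (ENSMUSG00000040856, positions 109452823 to 109463336) is paternally expressed and encodes a transmembrane protein of the Notch ligand family. Its counts were 156 and 217 in the WT libraries but 70 and 103 in the KO libraries, which gave 19.4 and 21.3 CPM against 8.32 and 11.3 CPM. The KO libraries did not overlap with the WT libraries, and *Dlk1* fell by 1.04 on the log2 scale (SE 0.25, 95% interval -1.62 to -0.47, edgeR adjusted p = 0.0414). It did not pass the test without KO replicate 1 (log2 fold change -0.83, adjusted p = 0.321), without KO replicate 2 (-1.28, adjusted p = 0.0512) or among genes with at least 10 counts in every library (-1.01, adjusted p = 0.0583). *Meg3*, the maternally expressed long non-coding RNA from the same control region, did not differ detectably. It had 1012 and 1520 counts in the WT libraries and 1089 and 1270 in the KO libraries, or 137 ± 16.5 CPM (SD, n = 2) against 135 ± 7.35 CPM. The 95% interval of its log2 fold change of -0.03 (SE 0.15) ran from -0.38 to 0.32 (edgeR adjusted p = 0.936). The sign turned to 0.07 when library sizes were used without further scaling, and the libraries of both genotypes overlapped. *Rian*, a maternally expressed host of small nucleolar RNAs, had 181 and 164 CPM in WT and 131 and 125 CPM in KO (-0.43, edgeR adjusted p = 0.113), and with the length and GC correction the log2 fold change was -0.14 (adjusted p = 0.71). *Mirg*, a microRNA host, and *Dio3*, which inactivates thyroid hormone, had log2 fold changes of -0.15 and -0.14.

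**Figure D3:**
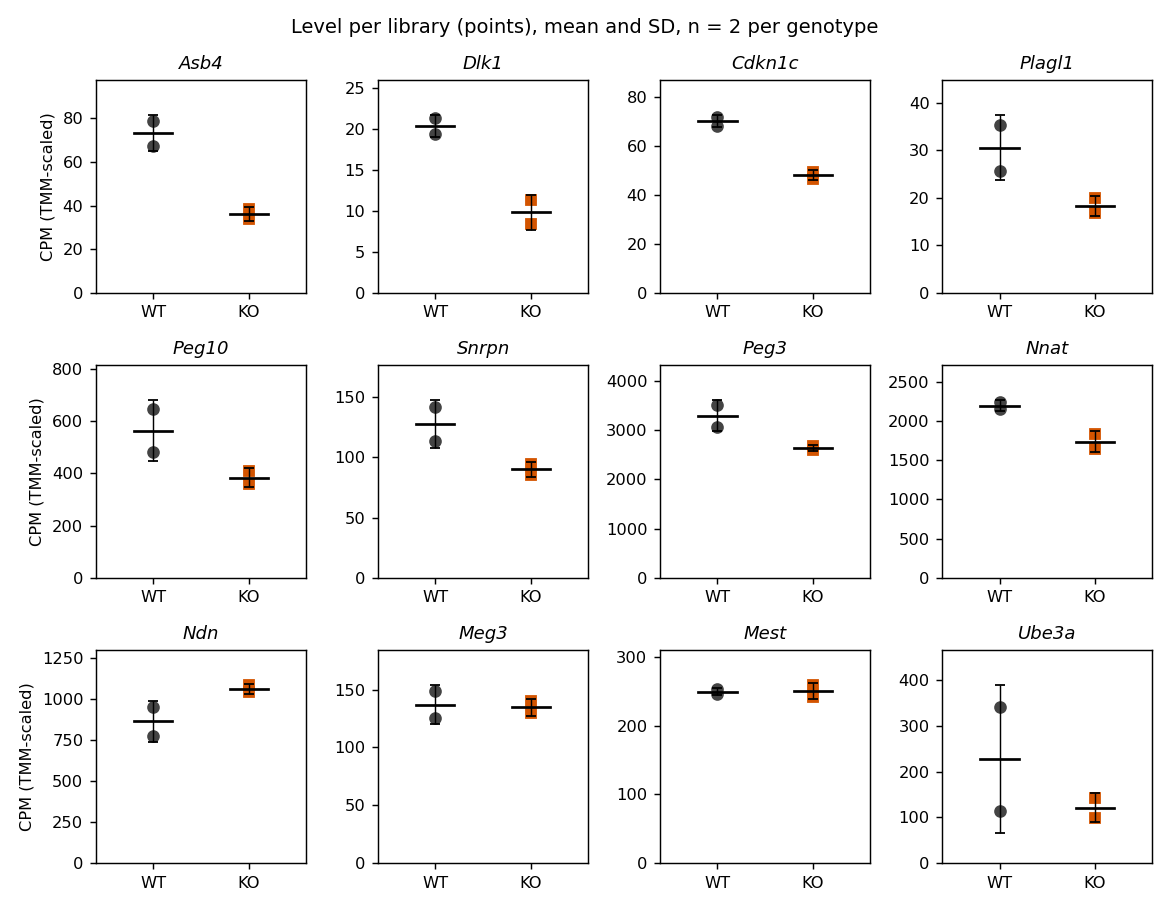
CPM per library (points), with the mean and SD of 2 libraries per genotype, for 12 imprinted genes. The y axes start at 0 and differ between panels. *Asb4* and *Dlk1* show KO means at 0.492 and 0.484 of the WT mean, *Mest* and *Meg3* overlap, and the WT libraries of *Ube3a* lie 3.01-fold apart.

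All members of the *Peg3* cluster on chromosome 7 were lower in both KO libraries than in both WT libraries. This held for 25.2% of all genes, and no member of the cluster passed the test. *Peg3* (positions 6703892 to 6730431), a paternally expressed zinc finger gene involved in maternal behaviour and growth, had 28288 and 31330 counts in the WT libraries and 21772 and 24267 in the KO libraries. The WT mean of 3291 ± 312 CPM (SD, n = 2) compared with 2631 ± 59.5 CPM in KO, and the log2 fold change was -0.32 (SE 0.14, 95% interval -0.65 to 0.01, edgeR adjusted p = 0.23). At this depth the spread between libraries, and not the number of reads, set the width of the interval. The deubiquitinase gene *Usp29*, which shares the bidirectional promoter of *Peg3*, had a log2 fold change of -0.27, and the maternally expressed zinc finger gene *Zim1* had -0.20 (edgeR adjusted p = 0.298 and 0.441).

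The *Snrpn* cluster on chromosome 7, the mouse counterpart of the Prader-Willi and Angelman syndrome region, had members on both sides of 0, from -0.91 to 0.30. *Snrpn*, which encodes a component of the neuronal splicing machinery, had 1140 and 1161 counts in the WT libraries and 719 and 856 in the KO libraries. This gave 128 ± 19.6 CPM (SD, n = 2) against 89.9 ± 6.22 CPM and a log2 fold change of -0.50 (SE 0.16, edgeR adjusted p = 0.113). On 27.3% of its exonic bases *Snrpn* shares sequence with *Gm38393* on the same strand, which had 924 and 449 counts in the WT libraries and 305 and 169 in the KO libraries, so that reads of both could be split between them. *Magel2* and *Mkrn3*, a MAGE family gene and a ring finger gene that restrains the onset of puberty, also had both KO libraries below both WT libraries, with log2 fold changes of -0.37 and -0.54 (edgeR adjusted p = 0.179 and 0.118). *Ndn*, which encodes the neuronal growth suppressor necdin, stood on the other side with 777 and 954 CPM in WT and 1043 and 1084 CPM in KO. Its log2 fold change of 0.30 did not pass the test (edgeR adjusted p = 0.294). *Peg12* was close to 0 (0.07).

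*Ube3a*, a ubiquitin ligase gene that neurons express from the maternal copy, had the largest ratio between the WT libraries of all members tested. Its CPM values were 341 and 113 in WT and 143 and 98.9 in KO. WT replicate 1 alone stood apart, 3.01-fold above WT replicate 2, while WT replicate 2 lay between the KO libraries. The log2 fold change of -0.91 (95% interval -1.91 to 0.09, edgeR adjusted p = 0.258) became 0.09 without WT replicate 1 and -1.51 without WT replicate 2. *Snhg14*, the paternal transcript that runs antisense to *Ube3a*, covers 8.74% of its exonic bases and had 2801 and 2302 counts in the WT libraries and 1690 and 1560 in the KO libraries. Since the strand setting of the counting is not given in the sources used here, reads of these overlapping genes cannot be told apart. Among the other members, *Mcts2* (2.02-fold) and *Kcnq1ot1* (1.69-fold) were also higher in WT replicate 1 than in WT replicate 2, and these ratios went down to 0.779 for *Trappc9*.

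**Figure D4:**
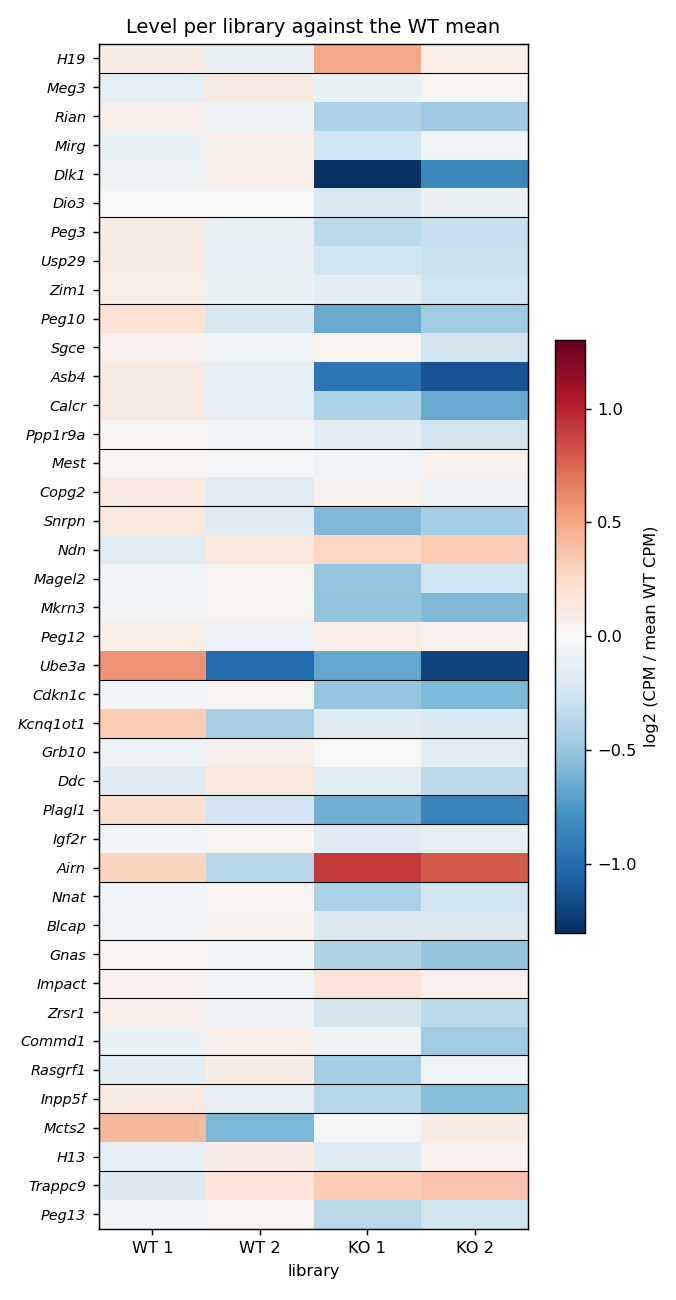
CPM of each library relative to the mean WT CPM on the log2 scale (colour) for the 41 imprinted genes tested (rows, by cluster) in the 4 libraries (columns). Both KO columns are blue for *Dlk1* and *Asb4*, and WT replicate 1 stands apart from WT replicate 2 for *Ube3a*, *Kcnq1ot1* and *Mcts2*.

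On distal chromosome 7, the *H19* and *Kcnq1ot1* domains hold genes that control fetal growth. *H19*, a maternally expressed non-coding RNA (positions 142575529 to 142578143), had 56 and 62 counts in the WT libraries and 77 and 63 in the KO libraries, or 6.51 ± 0.62 CPM (SD, n = 2) against 8.05 ± 1.57 CPM. The libraries overlapped, and the log2 fold change of 0.31 (SE 0.31) had an interval from -0.41 to 1.02 (edgeR adjusted p = 0.6). Its reciprocal partner *Igf2* stayed at or below 5 counts in every library. *Cdkn1c*, a maternally expressed inhibitor of cyclin-dependent kinases, had 551 and 734 counts in the WT libraries and 416 and 424 in the KO libraries. Its levels, 70.2 ± 2.49 CPM (SD, n = 2) against 48.1 ± 1.95 CPM, did not overlap between genotypes. With a log2 fold change of -0.55 (SE 0.14, 95% interval -0.88 to -0.21, edgeR adjusted p = 0.0616), *Cdkn1c* missed the threshold. It passed with no filter on low counts (adjusted p = 0.0477), with the length and GC correction (log2 fold change -0.67, adjusted p = 0.0069) and without either WT replicate (adjusted p = 0.00318 and 0.00739), but not without either KO replicate (adjusted p = 0.423 and 0.629) or with library sizes alone (adjusted p = 0.203). Antisense genes with 0 counts in every library cover 30.7% of its exonic bases and 13.1% of those of *Gnas*. *Kcnq1ot1*, the paternal non-coding RNA that silences this domain, had 3181 and 2382 counts in the WT libraries and 2345 and 2485 in the KO libraries. Its libraries overlapped at 314 ± 114 CPM (SD, n = 2) against 276 ± 3.61 CPM, and its log2 fold change was -0.18 (SE 0.23, edgeR adjusted p = 0.676), while it was 0.24 without WT replicate 1 (adjusted p = 0.174) and -0.53 without WT replicate 2 (adjusted p = 0.000434).

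At the *Igf2r* locus on chromosome 17, the receptor gene *Igf2r* is listed as maternally expressed, and its product clears IGF2 from the cell surface. It had 1638 and 2176 counts in the WT libraries and 1556 and 1744 in the KO libraries. The levels of 208 ± 6.98 CPM (SD, n = 2) and 188 ± 5.01 CPM lay close together, with a log2 fold change of -0.14 (SE 0.13, 95% interval -0.45 to 0.16, edgeR adjusted p = 0.567). *Airn*, the paternal antisense RNA that silences *Igf2r* in other tissues, had 10 and 8 counts in the WT libraries and 16 and 16 in the KO libraries. Both KO libraries were above both WT libraries, but the interval of its log2 fold change of 0.86 ran from -0.49 to 2.21 (edgeR adjusted p = 0.424), and so few counts could not show a smaller difference. *Grb10* on chromosome 11, an adaptor of growth factor receptors that neurons express from the paternal copy through a promoter of their own, had 1310 and 1820 counts in the WT libraries and 1431 and 1406 in the KO libraries. It was found at 170 ± 11.1 CPM (SD, n = 2) and 162 ± 10.8 CPM (log2 fold change -0.07, SE 0.14, edgeR adjusted p = 0.815). The neighbouring *Ddc*, which encodes an enzyme of dopamine and serotonin synthesis, had at most 33 counts per library and a log2 fold change of -0.25. *Mest* on chromosome 6, a paternally expressed hydrolase-like gene, had 2041 and 2508 counts in the WT libraries and 2038 and 2349 in the KO libraries. With 249 ± 5.39 CPM (SD, n = 2) against 250 ± 11.6 CPM, its log2 fold change of 0.01 (SE 0.13) was bounded by -0.30 and 0.31 (edgeR adjusted p = 0.989). *Copg2*, a coat protein gene that shares 17.8% of its exonic bases with *Mest* in antisense orientation, had -0.02.

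The *Nnat* locus on chromosome 2 lies inside an intron of *Blcap*. *Nnat* (positions 157560078 to 157562522) had 17285 and 22886 counts in the WT libraries and 13828 and 16614 in the KO libraries, or 2194 ± 68.4 CPM (SD, n = 2) against 1737 ± 131 CPM. Both KO libraries were below both WT libraries, and the log2 fold change of -0.34 (SE 0.14, 95% interval -0.66 to -0.01) had an edgeR adjusted p of 0.206. *Blcap* also had the KO libraries below the WT libraries and a log2 fold change of -0.19. *Gnas*, which encodes the stimulatory G protein alpha subunit and is imprinted from some of its promoters, had 476 and 576 counts in the WT libraries and 371 and 368 in the KO libraries. This corresponded to 57.8 ± 1.87 CPM (SD, n = 2) and 42.3 ± 2.53 CPM, a log2 fold change of -0.45 (SE 0.15, edgeR adjusted p = 0.123). *Plagl1*, a zinc finger transcription factor gene with a germline methylated region at its promoter, had 35.4 and 25.7 CPM in WT and 19.9 and 16.9 CPM in KO. Its log2 fold change of -0.73 had an edgeR adjusted p of 0.0972. For the inositol phosphatase gene *Inpp5f* the values were 523 and 443 CPM in WT and 373 and 329 CPM in KO (-0.46, adjusted p = 0.118).

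The remaining members had log2 fold changes between -0.31 and 0.35, and none passed the test. *Peg13*, a paternal non-coding RNA, lies in an intron of *Trappc9*, a trafficking complex gene that neurons express mainly from the maternal copy. Their point estimates had opposite signs: *Peg13* had 250 and 263 CPM in WT and 200 and 215 CPM in KO, while *Trappc9* had 67.8 and 87.0 CPM in WT and 97.5 and 100.0 CPM in KO. Neither difference passed the test (log2 fold changes -0.31 and 0.35, edgeR adjusted p = 0.226 and 0.255). The retrogenes *Mcts2* and *Zrsr1* had 0.05 and -0.29, and their host genes *H13* and *Commd1* had -0.05 and -0.26. *Mcts2* had 0.62 without WT replicate 1 and -0.39 without WT replicate 2. *Impact*, a regulator of translation, had 0.10, and *Rasgrf1*, a Ras exchange factor of neurons, had -0.24.

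The members were grouped by the copy listed as expressed, which can depend on the tissue and was not measured in these cells. Log2 fold changes were below 0 in 14 of 16 maternally and 15 of 21 paternally expressed genes, against 52.4% of all genes. Their medians were -0.19 and -0.27. Each of these groups had 1 member called lower (0.57% of all genes), *Asb4* and *Dlk1*, and 0 called higher. The paternally expressed genes with estimates above 0 were *Mest*, *Ndn*, *Peg12*, *Airn*, *Impact* and *Mcts2*, and the maternally expressed ones were *H19* and *Trappc9*. None of these 8 was called, and the clusters of *Igf2r*, *Peg13*, *Mest*, *Mcts2* and *Snrpn* held estimates of both signs. The 12 genes listed with a germline methylated region at the promoter, all of them tested, had a median of -0.30, with 8 below 0 (52.4% of all genes) and both KO libraries below both WT libraries in 7 (25.2% of all genes). *Usp29* and *Sgce*, which start beside *Peg3* and *Peg10* of this list, were not placed in it. Their log2 fold changes were -0.27 and -0.09. Of the 12 genes listed, 0 were called by edgeR and limma-voom, where 7.9% and 7.81% of all genes were called in either direction. At an unadjusted p under 0.05, 4 were lower (8.01% of all genes). DESeq2 called 1 lower, *Peg10* (1.47% of all genes). With the length and GC correction, under which 5.09% of all genes were lower, edgeR called *Peg10*, *Snrpn*, *Plagl1*, *Nnat* and *Peg13*. The 7 tested genes under control regions methylated in sperm had a median of -0.15, and the 34 under control regions methylated in oocytes had -0.25. With library sizes alone in place of TMM, the median of all genes moved from -0.03 to 0.08 and that of the members from -0.24 to -0.14, with 28 of 41 below 0.

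Factors that maintain or erase imprints were compared as a list of 22 genes, of which 19 were tested. By edgeR 0 of 19 were called, where 7.9% of all genes were called in either direction. At an unadjusted p under 0.05, 1 of 19 was lower, *Dnmt1*, and 1 was higher, *Tet2*, against 8.01% and 14.6% of all genes. *Tet2*, which oxidises methylated cytosine, had 169 and 153 CPM in WT and 195 and 232 CPM in KO (log2 fold change 0.41, edgeR adjusted p = 0.159). DESeq2 and limma-voom each called *Dnmt1* alone, where 8.87% and 7.81% of all genes were called. The median of the list was -0.23, with 14 of 19 below 0, against 52.4% of all genes. *Zfp57* had 287 and 265 CPM in WT and 247 and 224 CPM in KO (-0.23, edgeR adjusted p = 0.37). Its cofactor *Trim28* had 405 and 526 CPM in WT and 367 and 376 CPM in KO (-0.33, edgeR adjusted p = 0.273). The partner of DNMT1 at the replication fork, *Uhrf1*, had 242 and 312 counts in the WT libraries and 322 and 280 in the KO libraries (0.19, edgeR adjusted p = 0.578).

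Of 32 further imprinted genes, among them genes that are imprinted only in the placenta, 22 were tested. By edgeR 2 of them (9.09%) rose in KO, against 7.33% of all genes, and 0 were lower. At an unadjusted p under 0.05, 5 were higher and 2 were lower, where the shares over all genes were 14.6% and 8.01%. DESeq2 called 4 of the 22, in either direction (8.87% of all genes), and limma-voom called 2 (7.81% of all genes), *Pon2* and *Cd81*, so that *Gatm* was called by neither of them. The median of the list was -0.17. *Pon2*, a paraoxonase gene, had 23 and 17 counts in the WT libraries and 135 and 153 in the KO libraries. Its level rose from 2.26 ± 0.84 CPM (SD, n = 2) to 16.5 ± 0.57 CPM (log2 fold change 2.88, SE 0.34, edgeR adjusted p = 0.00138). *Gatm*, which encodes the first enzyme of creatine synthesis, rose from 257 and 292 counts to 408 and 420 counts, or from 30.3 ± 2.33 CPM to 47.4 ± 1.59 CPM (log2 fold change 0.65, SE 0.16, edgeR adjusted p = 0.0489). In the KO libraries these 2 genes were high together with the astrocyte markers given above, and the part of astrocytes in their levels was not tested. Without KO replicate 1 or without KO replicate 2, *Pon2* was the 1 gene of the list that passed the test.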

How the data were processed

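The authors deposited unnormalized counts of reads on Ensembl genes, in 1 list for each of the 2 WT and 2 *Dnmt1* KO libraries of FACS-enriched cells. The submitters' processing notes name CASAVA 1.8.2, STAR 2.5.2a, featureCounts 1.5.0-p1 and the build mm10 (GRCm38). The annotation release, the strand setting and the treatment of ambiguous reads are not given in the sources used here.

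Of 55573 gene identifiers, 55480 were matched to GENCODE M21 for symbols, positions and exonic lengths. After edgeR's expression filter, 16832 genes were left. Counts were scaled by TMM and compared by the quasi-likelihood test of edgeR 4.0.16 (with limma 3.58.1, in R 4.3.3), with genotype as the only term and Benjamini-Hochberg adjustment over all genes tested. Genes under 0.05 were called. Intervals of 95% and SEs were derived from the test statistic (8.05 degrees of freedom). The counts of the libraries of a genotype differed beyond sampling noise (chi-square divided by its degrees of freedom, 57.2 in WT and 4.28 in KO), as separately prepared technical duplicates also can. Each was used as 1 library of its genotype, as the labels list them. Detection floors cover counting error only. The procedures were tested on simulated data.

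The members, the gene lists, the clusters and the expressed copies, which come from textbook knowledge, were chosen with earlier results of these data known. All members may be named. Full statistics are given for called members and for 13 well-known genes (*H19*, *Igf2*, *Meg3*, *Dlk1*, *Peg3*, *Mest*, *Snrpn*, *Cdkn1c*, *Kcnq1ot1*, *Igf2r*, *Grb10*, *Nnat*, *Gnas*), and called genes are named from the further lists. Other genes named there were chosen after their values were seen. Alternatives were DESeq2 1.42.0, limma-voom, other scalings, filters and thresholds, the replicate number as a block, offsets that remove each library's trends with exonic length and GC content, the removal of mitochondrially encoded genes and leaving out each library. With 1 library left in a genotype, its spread was assumed to equal that of the other genotype.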

Additional observations from a re-analysis of the deposited data

How the results depend on the processing

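The number of members called lower (2) was 6 with no filter on low counts (1.91% of all genes), 1 with at least 10 counts in every library (0.364%), 13 with the correction for length and GC content (5.09%), 1 at an adjusted p under 0.01 (0.0951%) and 4 at 0.1 (1.89%), and it ranged from 0 to 16 when 1 library was left out. The number called higher (0) ranged from 0 to 2 in the latter fits, where 5.08% to 14.2% of all genes were higher. Without a filter, and without a WT library, edgeR's prior degrees of freedom were infinite, so that p-values used 1 trend of the spread for all genes and not the gene's own. Without KO replicate 1 and without KO replicate 2 these degrees of freedom were 670 and 435, against 6.05 in the fit reported. The gene's own spread thus had almost no weight without a KO library either. The correction was first fitted with offsets that were not centred, which moved the median of all genes to -0.24 and called 22 members and 4078 genes (24.2%) lower. It was replaced after this was seen, and the uncentred form was added as an alternative.

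No source says what a shared replicate number means. Same-numbered libraries deviated together with a correlation of 0.137. With the replicate number as a block, 10 members were lower (*Rian*, *Dlk1*, *Peg10*, *Asb4*, *Calcr*, *Snrpn*, *Ube3a*, *Cdkn1c*, *Plagl1* and *Inpp5f*), and so were 619 of all genes (3.68%). With the block and the correction 14 members and 1256 genes (7.46%) were lower, and *Ndn* was the 1 member that was higher.

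Counts in either direction are read beside the share of all genes called, which was 7.9% in the fit reported, 10.6% with library size only, 8.87% with DESeq2, 7.81% with limma-voom, 7.88% with no filter, 13.3% with the block, 16% with the correction, 19.7% with both, 33.9% with the uncentred correction, 4.4% at 0.01, 11.6% at 0.1 and 5.37% to 23.3% without 1 library. The number of imprint maintenance factors called (0 of 19) was 1 with DESeq2's size factors, no filter, DESeq2, limma-voom, the block, the removal of mitochondrially encoded genes or a threshold of 0.1. It was 3 with the correction, with or without the block, 10 with the uncentred correction, and from 0 to 8 without 1 library. The number of further imprinted genes called (2 of 22) was 4 with library size only or DESeq2, 7 with no filter or the correction, 6 with the block, 8 with the block and the correction, 10 with the uncentred correction, 1 at 0.01, 5 at 0.1 and 1 to 8 without 1 library.

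Of 224 comparisons of the log2 fold changes of 14 genes, 167 kept their sign and their side of the threshold, 39 passed it only under the alternative, 4 (*Asb4* and *Dlk1*, given above) passed it no longer, and 14 changed sign. *Meg3* (-0.03) had 0.07 with library size only, 0.01 with the upper quartile, 0.01 with at least 10 counts in every library and -0.15 to 0.09 without 1 library. *Mest* (0.01) had -0.0028 with DESeq2's size factors, -0.0027 with DESeq2, -0.24 with the uncentred correction and -0.04 to 0.07 without 1 library. *H19* had -0.06 with the uncentred correction, *Grb10* had 0.04 with library size only and -0.14 to 0.0014 without 1 library, and *Kcnq1ot1* had -0.53 to 0.24 without 1 library. The cause of these shifts was not tested.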
